A study of Mus musculus with 6 samples.

Results

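The insulin and insulin-like growth factor (IGF) receptor pathway was examined through 8 genes measured in fully grown mouse oocytes: the receptors Igf1r, Insr and Insrr, the ligand Igf1, the receptor substrates Irs1 and Irs2, and the adaptors Grb2 and Shc1. They are 8 of 19938 genes with a probe set that the array annotation assigns to a single symbol, and each is represented by its brightest such probe set by the mean over the 6 arrays. The set was built around Igf1r because Igf1r passed the threshold in the mutant comparison, that is, it was chosen by the measured mutant minus wildtype difference of Igf1r, and so every value of the mutant comparison for these 8 genes is given as a description, with its error and without a test. The question asked of the data was whether the other members followed Igf1r.

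IGF1 and insulin bind related receptor tyrosine kinases, IGF1R and INSR, which phosphorylate themselves and then the docking proteins IRS1, IRS2 and SHC1. The IRS proteins recruit phosphoinositide 3-kinase (PI3K), which activates AKT, restrains the FOXO transcription factors and activates mTOR, while SHC1 and GRB2 recruit the exchange factors that load Ras and start the MAP kinase cascade. In the mouse ovary IGF1 is made mainly by granulosa cells, the follicle cells around the oocyte, and supports their response to follicle-stimulating hormone.

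Oocytes at the germinal vesicle stage, the arrest before the first meiotic division resumes, came from wildtype females and from females homozygous for a Brwd1 mutation, both on the B6/C3H background. All females were 2 to 6 months old and had received 5 IU of equine chorionic gonadotropin, which drives follicle growth, 44 h earlier. Each group had 3 samples of 100 oocytes, called wildtype 1 to 3 and mutant 1 to 3. Neither the mutated part of Brwd1 nor a separate animal behind each pool is named in the labels, so the spread between samples may be technical. Because each sample is a pool, fewer cells with a transcript and less of it per cell cannot be told apart.

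Levels are log2 microarray values, normalized so that the 6 arrays share nearly the same distribution. Brwd1, the mutated gene, ran from 8.91 to 9.08 in the wildtype and from 4.41 to 4.56 in the mutant arrays. All 15 oocyte markers, among them Gdf9 and Zp3, lay above the background guide of 4.48 in every array, with list means of 11.08 to 11.09 in the wildtype and 11.13 to 11.14 in the mutant arrays. The guide is the 95th percentile of 1210 probe sets of olfactory and vomeronasal receptors, genes taken as silent here. Of all 19938 genes 12662 had mean levels above the guide, of the markers of theca and stroma 6 of 14, and of those of blood, immune and endothelial cells 8 of 16. None of the markers of these or of granulosa and oocyte lists passed the threshold (limma), where at an unadjusted p under 0.05, which 14.9% of all genes reached, 0 of the oocyte markers, 3 of the granulosa, 1 of the theca and 3 of the blood markers were higher and 1 of the granulosa markers was lower. Of the 16 blood, immune and endothelial markers 14 had positive differences, as had 53.4% of all genes. C1qb, a complement subunit of macrophages, had the widest, 0.90 (limma, adjusted p = 0.162). Other macrophage genes of the list differed less, Csf1r by 0.19, C1qa by 0.18, Adgre1 by 0.067, C1qc by 0.063, Lyz2 by 0.0033 and Cd68 by -0.07. The summed linear level of the 16 markers, in which the brightest weigh most, ran from 595 to 641 in the wildtype and from 670 to 793 in the mutant arrays. Their part in the results was not tested. Probes differ in brightness, so where levels are set beside the guide or those of other probe sets, amounts of transcript are not compared.

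Stretches of 250 bases before the annotated start were available for 6 members, Insr and Insrr not among them, from RefSeq on assembly GRCm38.p6. Those of Igf1r and of the substrates Irs1 and Irs2 are shown because they held the most CpG sites of the members and belong to a receptor and the substrates it shares with Insr. Capitals mark the GC box, GGGCGG on the strand shown or CCGCCC for its other strand. The Igf1r stretch is at chr7:67952007-67952256 (plus strand), that of Irs1 at chr1:82291440-82291689 (minus strand) and that of Irs2 at chr8:11008930-11009179 (minus strand).
Igf1r: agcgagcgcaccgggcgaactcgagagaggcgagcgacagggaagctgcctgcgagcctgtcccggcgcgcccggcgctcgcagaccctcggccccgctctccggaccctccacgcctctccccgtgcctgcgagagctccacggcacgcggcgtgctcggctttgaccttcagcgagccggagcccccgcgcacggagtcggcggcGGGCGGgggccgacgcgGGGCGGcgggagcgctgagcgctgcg
Irs1: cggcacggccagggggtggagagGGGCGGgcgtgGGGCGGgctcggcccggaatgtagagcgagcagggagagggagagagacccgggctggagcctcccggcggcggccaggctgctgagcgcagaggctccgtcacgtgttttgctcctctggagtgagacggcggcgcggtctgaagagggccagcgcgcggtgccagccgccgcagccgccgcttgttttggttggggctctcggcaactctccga
Irs2: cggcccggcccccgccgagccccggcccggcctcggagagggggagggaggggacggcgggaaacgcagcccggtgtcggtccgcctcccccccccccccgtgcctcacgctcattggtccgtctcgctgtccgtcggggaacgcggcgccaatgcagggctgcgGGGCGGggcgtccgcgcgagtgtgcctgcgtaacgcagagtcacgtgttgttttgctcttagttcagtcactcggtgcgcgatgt

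The Igf1r stretch held 42 CpG sites, that of Irs2 34 and that of Irs1 28, against a median of 6 over all 32851 stretches of the same length in the table. GC boxes occurred 2 times in Igf1r, 2 times in Irs1 and 1 time in Irs2, and 32.7% of all stretches held at least 1. The E-box CACGTG, which reads the same on both strands, occurred 1 time each in Irs1 and Irs2 and not in Igf1r, and 6.0% of all stretches held it. The forkhead motif TGTTTAC, searched also as its reverse strand GTAAACA, present in 3.2% of all stretches, was in none of the 8 stretches of members. The stretch of the ligand gene Igf1 was unlike these, with 5 CpG sites and no GC box. Shc1 and Grb2 have 2 annotated starts each, with 12 and 4 CpG sites for Shc1 and 2 and 6 for Grb2. These are descriptions of the letters in one window and say nothing of what binds there.

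Among the receptors, Igf1r was at 6.44, 6.42 and 6.38 in wildtype 1, 2 and 3 and at 5.86, 5.68 and 5.83 in mutant 1, 2 and 3. Every mutant array lay below every wildtype array, and the gap between the groups was wider than the range within either group, 0.06 in the wildtype and 0.18 in the mutant. The log2 difference, mutant minus wildtype, was -0.62 (SE 0.067, 95% confidence interval -0.78 to -0.46, n = 3 per group), which is 1.54-fold in linear terms. Its limma adjusted p of 0.0351 is the value that chose the set and is no independent evidence. The threshold was an adjusted p of 0.05, and 0.105% of all genes passed it by their brightest probe set. Igf1r was the 1 of the 8 members that did, and its own passing is fixed by the choice of the set. Of all genes, 0.587% had a lower difference than Igf1r.

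How firmly Igf1r stands past the threshold depended on having all 6 arrays. Its difference stayed between -0.66 and -0.57 when each array was left out in turn, but it passed in 0 of these 6 omissions, with limma adjusted p-values from 0.0651 without wildtype 3 to 0.168 without wildtype 2. It also did not pass when all 35556 probe sets were tested (limma, adjusted p = 0.0827) or with the replicate number as a block (0.158).

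Insr, the insulin receptor, showed no such separation. It was at 6.13, 5.55 and 5.82 in the wildtype and at 5.51, 6.27 and 5.88 in the mutant arrays. The groups overlapped fully, with both the highest and the lowest value in the mutant. The log2 difference was 0.053 (SE 0.22, 95% confidence interval -0.46 to 0.57), an interval wide on both sides of 0 whose lower end meets the upper end of that of Igf1r. The dimmer of the 2 Insr probe sets was at 5.31, 4.60 and 5.42 in the wildtype and at 4.94, 5.06 and 5.13 in the mutant arrays. Its difference was -0.067 (SE 0.21), and its low array, wildtype 2, was also the lowest wildtype array of the brighter probe set.

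Insrr, the insulin receptor-related receptor, a sensor of alkaline pH that binds neither insulin nor IGF, was not measured above background. The wildtype arrays read 3.69, 3.77 and 3.76 and the mutant arrays 3.80, 3.91 and 3.83, all under the guide. The mutant arrays were the higher ones without overlap, by 0.11 (SE 0.059, 95% confidence interval -0.034 to 0.25). The 2220 genes within 0.25 of its level had a median difference of 0.040, and after median centring, which lowered the median of all genes from 0.013 to -0.043, the difference of Insrr was 0.050.

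The ligand gene Igf1 lay at the background guide. It was at 4.56, 4.25 and 4.51 in the wildtype and at 4.49, 4.52 and 4.70 in the mutant arrays, and wildtype 2 alone was under the guide. The groups overlapped, with a difference of 0.13 (SE 0.10, 95% confidence interval -0.11 to 0.37), beside a median of 0.067 for the 2070 genes of like level. Of 27 measured markers of granulosa and cumulus cells, 16 had mean levels above the guide, where 12662 of all 19938 genes did. The summed linear level of the markers, in which the brightest weigh most, ran from 1761 to 1956 in the wildtype and from 2005 to 2142 in the mutant arrays. Their mean log2 level ran from 4.93 to 4.98 in the wildtype and from 4.96 to 5.06 in the mutant arrays, with overlap. Fshr, the receptor of follicle-stimulating hormone, was at 4.14 to 4.25 and 4.17 to 4.40, and Amh, a granulosa hormone, at 4.02 to 4.46 and 4.28 to 4.48, at or under the guide in both groups. Others were well above it, Bmpr1b, a receptor of bone morphogenetic proteins, with group means of 9.08 in the wildtype and 9.24 in the mutant arrays, and the nuclear receptor gene Nr5a2, with 8.89 and 9.05. Of the 27 markers, 3 were higher and 1 lower at an unadjusted p under 0.05, among them the transcription factor gene Gata4 at 0.29 (limma, adjusted p = 0.170), Has2, which makes hyaluronan, at 0.49 (0.267) and Ptgs2, the inducible prostaglandin synthase, at -0.57 (0.252). The part of these cells in the Igf1 signal was not tested.

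**Figure D1:**
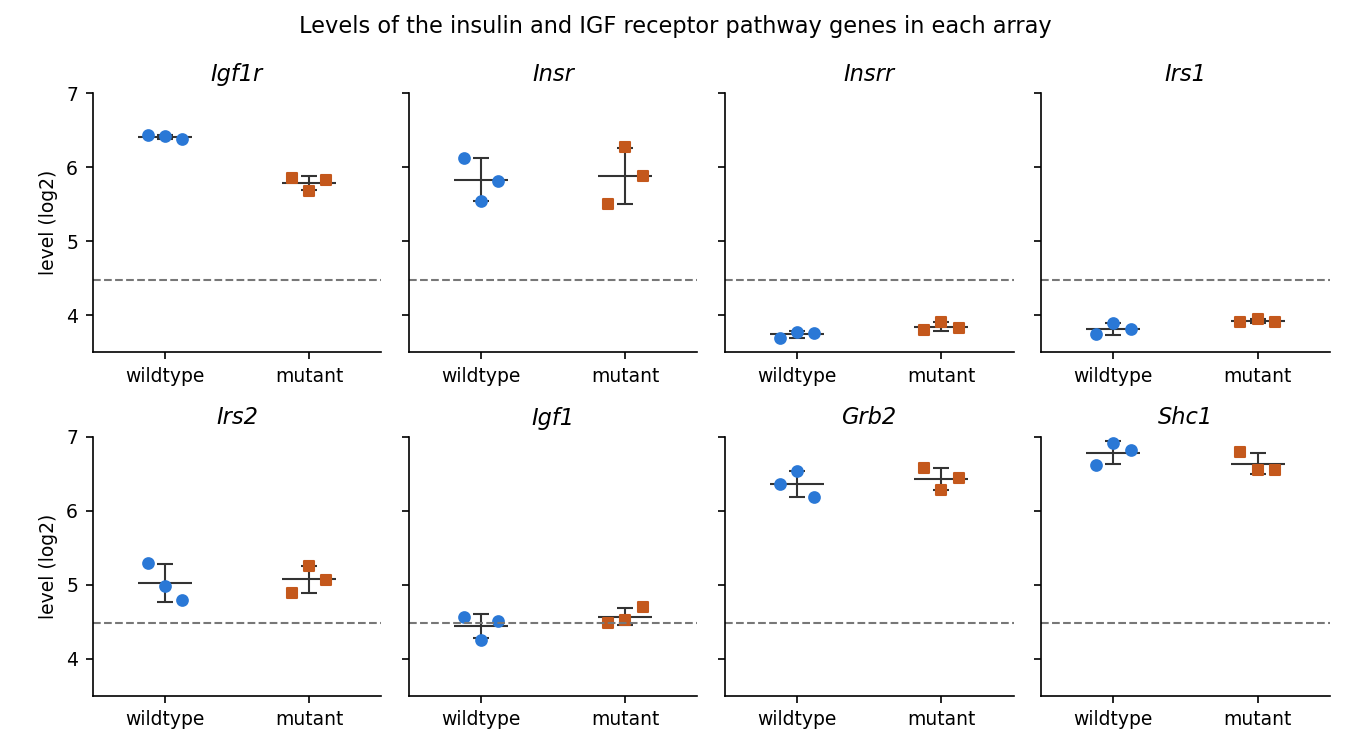
Level of each pathway gene (log2, vertical axis) in the 3 wildtype arrays (circles) and 3 mutant arrays (squares), with the mean and SD of each group as bars and the background guide of 4.48 as a dashed line. Igf1r separates the groups widely, while Insr, Irs2, Igf1, Grb2 and Shc1 overlap and Insrr and Irs1 lie under the guide.

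The receptor substrates differed in whether they could be measured. Irs1 was at 3.74, 3.89 and 3.81 in the wildtype and at 3.91, 3.95 and 3.91 in the mutant arrays, all under the guide. Its mutant arrays were higher without overlap, by 0.11 (SE 0.061, 95% confidence interval -0.035 to 0.25), among 2236 genes of like level with a median difference of 0.043, and by 0.053 after median centring. The dimmer Irs1 probe set, at 3.28 to 3.51 in the wildtype and 3.51 to 3.65 in the mutant arrays, was also under the guide. At these levels a size is not interpretable as a change in transcript.

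Irs2, which in many tissues carries the insulin signal beside Irs1, was above the guide in every array. The wildtype arrays read 5.30, 4.98 and 4.79 and the mutant arrays 4.89, 5.26 and 5.07. The groups overlapped, and the difference was 0.050 (SE 0.15, 95% confidence interval -0.30 to 0.40). Irs2 was highest in wildtype 1 and mutant 2, the arrays in which the brighter Insr probe set was highest as well. Both were lowest among the mutant arrays in mutant 1. Among the wildtype arrays Irs2 was lowest in wildtype 3 and the brighter Insr probe set in wildtype 2. The dimmer Insr probe set was highest in wildtype 3 and mutant 3. The arrays behind these values are the same, so this is a description of 6 libraries.

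The adaptors were well measured and also overlapped. Grb2, which links phosphorylated receptors and SHC1 to the Ras exchange factors, was at 6.37, 6.54 and 6.19 in the wildtype and at 6.58, 6.28 and 6.45 in the mutant arrays. Its difference was 0.070 (SE 0.11, 95% confidence interval -0.20 to 0.34), smaller than the range within either group, 0.35 and 0.30. Shc1, a docking protein of receptor tyrosine kinases, was at 6.62, 6.92 and 6.83 in the wildtype and at 6.80, 6.56 and 6.56 in the mutant arrays. It was the only other member with a negative difference by its brightest probe set, -0.15 (SE 0.10, 95% confidence interval -0.40 to 0.097), and wildtype 1 and mutant 1 lay inside the range of the other group.

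**Figure D2:**
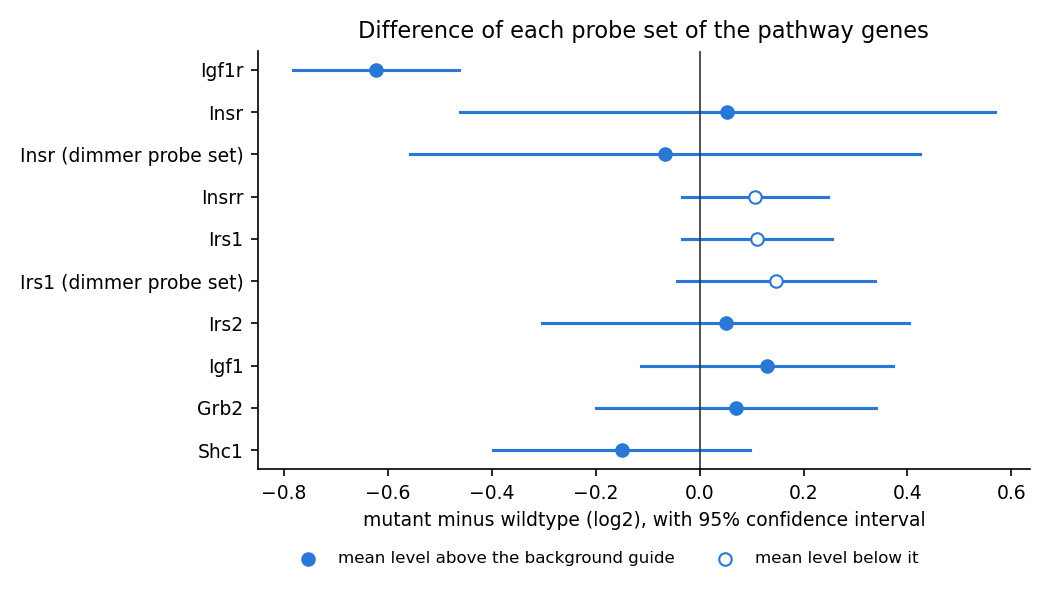
Mutant minus wildtype difference (log2, horizontal axis) of the 10 probe sets of the 8 genes, each with the 95% confidence interval of the limma fit, filled where the mean level is above the background guide. Igf1r, at -0.62, is the probe set whose interval lies entirely below 0, and the intervals of all the others include 0.

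Over the 8 members, 6 differences were positive and 2 negative, with a median of 0.062, beside 0.013 over all genes. The groups did not overlap for 3 members, Igf1r, Insrr and Irs1, or 37.5%, where 19.8% of all genes had groups that did not overlap, and nothing is read from that count. Leaving out single arrays turned the sign of 3 of the small differences. Insr ran from -0.14 to 0.24, Irs2 from -0.067 to 0.19 and Grb2 from -0.018 to 0.16, while Shc1 stayed between -0.24 and -0.085 and Igf1 between 0.035 and 0.19.

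No other member had an array profile near that of Igf1r. Likeness was measured as the root mean square distance between profiles over the 6 arrays, each centred on its own mean. The nearest genes were Cyct, the testis cytochrome c, at a distance of 0.045, Mfn2, which fuses mitochondria, at 0.077, Wdr55, a WD-repeat protein, at 0.079, Ccnk, a cyclin that works in transcription, at 0.080, and Derl3, of endoplasmic reticulum degradation, at 0.080. Their differences were -0.66, -0.57, -0.66, -0.62 and -0.52, near the -0.62 of Igf1r, and the measure picks such genes by construction. Cyct was at 7.19, 7.10 and 7.10 in the wildtype and at 6.49, 6.43 and 6.49 in the mutant arrays. Of the members, Shc1 was the nearest, at 0.26, with 2593 genes closer, and Insr the farthest, at 0.46, with 18726 genes closer.

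**Figure D3:**
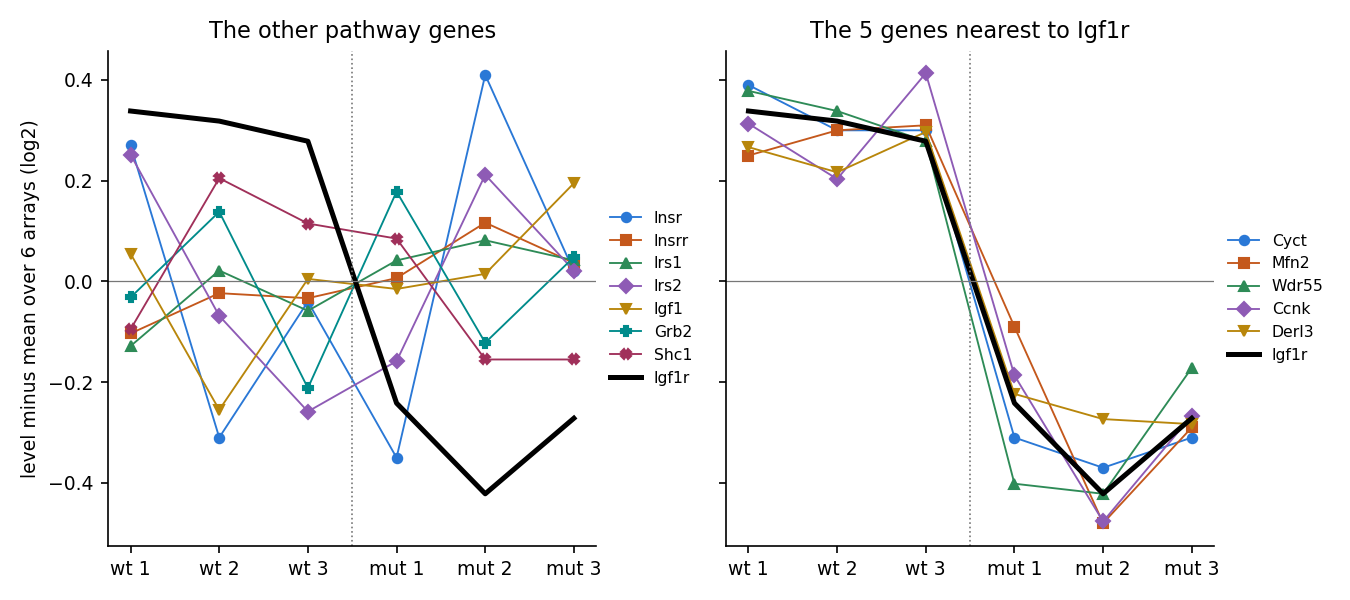
Levels of each gene minus its own mean over the 6 arrays (log2, vertical axis) in the wildtype (wt) and mutant (mut) arrays, for the other 7 pathway genes (left) and the 5 genes nearest to Igf1r (right), with Igf1r as the heavy black line in both. Lines only join the values of a gene and carry no order of the arrays. The genes on the right, picked for their nearness to Igf1r, drop between the groups as it does. On the left Shc1 has a difference of -0.15 and the others have positive ones.

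The wider pathway was described with 124 further genes in 8 lists, of which 110 had a single-symbol probe set. The others were not analysed here. Of the 110 genes, 0 passed the threshold (limma), where 0.105% of all genes did. At an unadjusted p under 0.05 there were 22, or 20.0%, 9 higher and 13 lower, beside 14.9% of all genes and 19.7% of genes above the guide. The median difference was -0.0083, beside 0.013 over all genes.

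The other ligands measured were Igf2, at 5.27 to 5.70 in the wildtype and 5.57 to 5.75 in the mutant arrays, and the insulin gene Ins2, at 5.25 to 5.50 and 5.40 to 5.61. Their differences were 0.16 (SE 0.12; limma, adjusted p = 0.563) and 0.17 (SE 0.092; limma, adjusted p = 0.452). Both overlapped between the groups, and 0 of 2 passed even at an unadjusted p under 0.05.

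Of 14 genes that bind or release IGFs, 0 passed (limma), and at an unadjusted p under 0.05 4 were higher and 1 lower. These are 35.7% beside 14.9% of all genes. The share was 19.7% among all genes above the guide, where 9 of the 14 lay. Stc1, stanniocalcin 1, an inhibitor of the protease that cleaves IGF binding proteins, had the widest difference, 0.95 (SE 0.18; limma, adjusted p = 0.136). It was at 4.90, 4.61 and 4.76 in the wildtype and at 5.31, 5.75 and 6.05 in the mutant arrays, so that every mutant array was the higher. Pappa2, such a protease, was at 0.37 (limma, adjusted p = 0.117) but under the guide in every array, and Igfbp3, the main IGF carrier of blood, at 0.35 (0.164), from 4.77 to 4.90 in the wildtype to 5.06 to 5.32 in the mutant arrays. The 1 lower gene, Igfals, which encodes a subunit of the IGF complex of blood and is named after its values were seen, was at -0.45 (limma, adjusted p = 0.223), from 5.71 to 5.80 in the wildtype to 5.08 to 5.61 in the mutant arrays. Igf2r, the receptor that clears IGF2, was at -0.16 (limma, adjusted p = 0.401) and Igfbp7 at 0.10 (0.671), both well above the guide. The list median was 0.083.

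Further docking and adaptor genes showed no call among 17 (limma). At an unadjusted p under 0.05, 4 were higher and 1 lower, or 29.4% beside 14.9% of all genes. The share was 19.7% among all genes above the guide, where 13 of the 17 lay. Irs4, another receptor substrate and above the guide, was at 0.26 (limma, adjusted p = 0.227), the docking protein gene Gab1 at 0.33 (0.247) and the adaptor gene Nck1 at -0.26 (0.239). In each of these 3, named for their small p-values, the groups did not overlap, as in 6 of the 17 genes and 19.8% of all genes. Gab2, at 9.29 to 9.48 over the 6 arrays, had a difference of 0, and Ptpn11, the phosphatase SHP2, which docking proteins recruit, was at -0.06 (limma, adjusted p = 0.653).

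Among 15 inhibitors of the receptors and substrates, 0 passed (limma). At an unadjusted p under 0.05, 2 were lower and 0 higher, or 13.3% beside 14.9% of all genes. Both of those were tyrosine phosphatase genes, Ptprf, at 7.33 to 7.53 in the wildtype and 7.11 to 7.20 in the mutant arrays, and Ptpn1, which encodes PTP1B, the phosphatase that dephosphorylates the insulin receptor, at 6.13 to 6.41 and 5.71 to 6.06. Their differences were -0.30 (SE 0.072; limma, adjusted p = 0.167) and -0.32 (SE 0.12; limma, adjusted p = 0.289). The lipid phosphatase gene Inpp5d was at 0.14 (limma, adjusted p = 0.349). Mdm2 and Ptpn2, both bright, were at -0.043 and -0.04.

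In the PI3K branch, 19 of 28 genes had negative differences and 9 positive, with a median of -0.055, beside 50.5% negative among all genes above the guide. None of the 28 passed (limma), and 5 were lower and 0 higher at an unadjusted p under 0.05. These are 17.9%, beside 14.9% of all genes and 19.7% of genes above the guide, where all 28 lay. Pik3ca, the catalytic subunit p110 alpha of PI3K, was at 7.85, 7.91 and 7.76 in the wildtype and at 7.60, 7.45 and 7.56 in the mutant arrays, a difference of -0.30 (SE 0.069; limma, adjusted p = 0.158). Mtor, at -0.20 (0.219), was lower in every mutant array, and its partner Mlst8, at -0.39 (0.245), overlapped in 1 mutant array. Pik3cd, the subunit p110 delta, was at 0.14 (limma, adjusted p = 0.341), and Foxo3, the factor that the branch restrains in oocytes, was at -0.067 (0.601).

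In the Ras and MAP kinase branch 0 of 17 genes passed (limma), and the median was -0.017. At an unadjusted p under 0.05, 1 was higher and 1 lower, or 11.8% beside 14.9% of all genes. Spred1, an inhibitor of Ras signalling, was at 6.85, 7.14 and 7.18 in the wildtype and at 6.84, 6.54 and 6.50 in the mutant arrays, a difference of -0.43 (SE 0.13; limma, adjusted p = 0.220). Its groups met within 0.01 without overlapping. The related inhibitor Spry1 was at -0.36 (limma, adjusted p = 0.349), Spry2 at 0.21 (0.266) under the guide, and Spry4 at 0.067 (0.591). Nras, one of the Ras genes, was at 0.04 (limma, adjusted p = 0.799).

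Known targets of FOXO factors, which the pathway represses, gave 0 calls among 15 (limma), with a median of -0.053. At an unadjusted p under 0.05, 2 were lower and 0 higher, or 13.3% beside 14.9% of all genes. Bcl2l11, which encodes the death inducer BIM, was at -0.56 (SE 0.16, limma, adjusted p = 0.222) and the repressor gene Bcl6 at -0.51 (SE 0.13, limma, adjusted p = 0.197). In both, named for their small p-values, the groups did not overlap, as in 3 of the 15 genes and 19.8% of all genes. Sod2, the mitochondrial superoxide dismutase, was at -0.27 (limma, adjusted p = 0.360). The bright targets Txnip and Cdkn1b were at -0.043 and -0.057. Of the proteins that bind Igf2 mRNA, Igf2bp3 was at -0.36 (limma, adjusted p = 0.177) and Igf2bp1, under the guide, at -0.14 (0.557), so 0 of 2 passed and 1 was lower at an unadjusted p under 0.05.

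**Figure D4:**
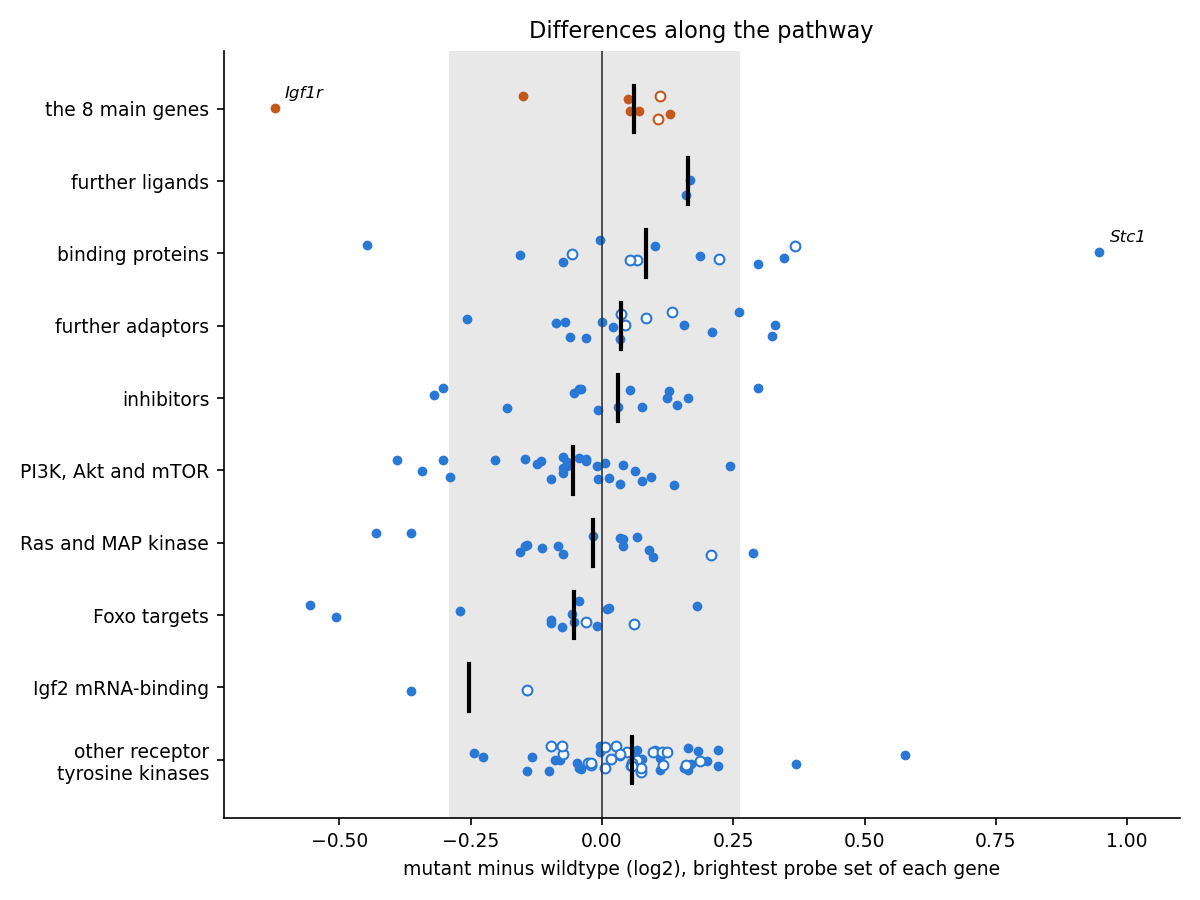
Mutant minus wildtype difference (log2, horizontal axis) of each gene by its brightest probe set, by role in the pathway, with list medians as vertical bars, open points for genes under the background guide and the middle 90% of all genes (-0.29 to 0.26) shaded. Igf1r lies at -0.62 and Stc1 at 0.95, and the medians of the lists of at least 8 genes lie between -0.055 and 0.083.

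Other receptor tyrosine kinases served as the comparison for Igf1r. Of 53 measured, 0 passed (limma), and their median was 0.057. At an unadjusted p under 0.05, 4 were higher and 2 lower, or 11.3% beside 14.9% of all genes. Epha7, an ephrin receptor, was at 0.58 (SE 0.14; limma, adjusted p = 0.177), Tyro3, a receptor of the TAM family, at 0.20 (0.233) and Kit, the oocyte's receptor for stem cell factor, at -0.23 (0.252). Styk1, like Kit well above the guide, was at 0.22 (limma, adjusted p = 0.454). Of the 53, 30 had mean levels above the guide, and differences near background are compressed. The differences of the 53 ran from -0.24 to 0.58, so none was as low as that of Igf1r. That comparison is a description, since Igf1r was chosen for its difference.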

How the data were processed

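The deposited values are log2 levels of 35556 probe sets on 6 single-colour Affymetrix mouse Gene ST arrays, made by the authors with Affymetrix Expression Console 1.1 and RMA, per the submitters' processing notes. RMA corrects background, brings the arrays to nearly 1 distribution and summarises probes, so total RNA per oocyte cannot be seen and differences near background are compressed. Per the labels' protocols, 1 ng of RNA was amplified. The number of arrays limits the precision.

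Mutant minus wildtype was fitted with limma 3.58.1 in R 4.3.3 (lmFit, eBayes, two-sided, no covariates, no filter) on all 23410 probe sets with a symbol, with Benjamini-Hochberg adjustment over them. Genes were named from the 21789 probe sets with 1 symbol, the brightest per gene. Members and lists were chosen with earlier results of these data known. Beside members, the text names from each list the genes with the 3 smallest p-values and the brightest 2, and the 5 genes nearest to Igf1r, leaving out predicted, small RNA and receptor genes; cell type markers and Igfals serve description. On simulated data the fit recovered 49.2% of added log2 differences of 0.5 and 83.2% of those of 1, and 5.4% of its calls were false. A gene that does not pass may therefore still differ. Alternatives were other normalizations, dim filters, variance models, array weights, probe sets tested, the replicate block and omission of each array.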

Additional observations from a re-analysis of the deposited data

How the results depend on the processing

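Over 16 alternatives the difference of Igf1r lay between -0.68 and -0.57, and in each the further pathway genes tested gave 0 calls (limma; smallest adjusted p from 0.0813 to 0.262), over 110 genes except 104 and 79 with the filters above the 25th percentile and the median level. Igf1r passed in 8 of the 10 alternatives that kept all arrays. These reuse the values by which Igf1r was chosen, so the count is no independent evidence. The total of 32 probe sets passing became 1 with the replicate block, 1 with all probe sets of the table, 76 with eBayes trend and robust settings, and 1 to 18 without 1 array. The correlations of the deviations of same-numbered arrays were small (r = -0.031 to 0.036), which gives no sign that the numbers pair them. After median centring Insrr was at 0.050, Irs1 at 0.053 and the median of the further pathway genes at -0.065. That median was -0.043 among probe sets above the median level and -0.033 to 0.00083 without 1 array. Medians of the further adaptors, inhibitors, binding proteins and Ras genes changed sign in at least 1 alternative. Those of the PI3K genes, from -0.11 to -0.023, and of the Foxo targets, from -0.11 to -0.028, did not. Both were lowest after median centring, where the median of all genes was -0.043. The filter above the median level dropped Insrr, Irs1, Irs2 and Igf1.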
